A study of Drosophila melanogaster with 62 samples.

Results

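The 9 pair-rule segmentation genes even skipped (eve), hairy (h), runt (run), fushi tarazu (ftz), odd skipped (odd), paired (prd), odd paired (opa), sloppy paired 1 (slp1) and sloppy paired 2 (slp2) were followed in RNA of Drosophila melanogaster embryos. They were chosen by name as the pair-rule genes of the fly, and all 9 were found among the 17753 genes of the count tables. Their levels were compared between embryos with knockdown (KD) of a histone acetyltransferase or deacetylase and control embryos.

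Pair-rule genes turn the graded maternal and gap gene factors of the blastoderm embryo into a periodic pattern, and most are transcribed in stripes with a period of a pair of segments. Eve, h and run are classed as primary genes because gap factors set many of their stripes directly, ftz and odd follow closely, and prd and the slp genes are set mainly by the other pair-rule proteins. Opa is the exception in that it is expressed in a broad domain and acts on the timing of the others. All 9 encode transcription factors, whose stripes in turn place the segment polarity genes such as engrailed and wingless. Nejire is the fly CBP, and Gcn5 the acetyltransferase of the SAGA complex. Enok is an acetyltransferase of the MYST family. HDAC1 (Rpd3), HDAC3 and HDAC6 are deacetylases, HDAC6 being mainly cytoplasmic.

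Total RNA came from 56 libraries of 20 hand-sorted embryos each, in 20 groups at stage 2, before bulk zygotic transcription, or stage 5, when the blastoderm forms cells. In the main set, Nejire KD, Gcn5 KD, HDAC1 KD, HDAC3 KD and control were collected at both stages, with 3 libraries per group except 2 for Gcn5 KD at stage 5. In the set titled batch1, Enok KD and HDAC6 KD had 2 libraries per stage, and the control had 3 at stage 2 and 4 at stage 5. Embryos with Nejire KD and a Nejire catalytic dead rescue or a Nejire wt rescue, and embryos with Gcn5 KD and a Gcn5 catalytic dead rescue or a Gcn5 wt rescue, were collected at stage 5 only, with 3 libraries per group. Nuclear RNA came from 3 Nejire KD and 3 control libraries of 300 stage 5 embryos each, with an ERCC RNA spike-in. The library names give each KD its own parental cross, so a KD and its cross cannot be told apart, and how the KD was driven is not stated in the labels. Both control sets carry the same cross in their names, where some batch1 controls read CtrlAc-KD and the nuclear controls read WT. One HDAC6 KD library titled stage 5 has a source field of stage 2.

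Libraries held 2.45 to 40.4 M counts in total RNA and 14.8 to 20.7 M in nuclear RNA. The targeted gene was lower than in control at stage 5 for Nejire KD (nej, log2 fold change -1.96, adjusted p = 0.000117), Gcn5 KD (-2.84), HDAC1 KD (-2.17), Enok KD (enok, -2.21) and HDAC6 KD (-1.48), all past the threshold. HDAC3 had 0 counts in every library, so that KD could not be checked. The transcript of nej was also lower in Gcn5 KD (-1.48) and HDAC1 KD (-1.24). So was that of enok, in Gcn5 KD (-0.82) and HDAC1 KD (-0.68). HDAC6 was lower in Gcn5 KD (-0.51), HDAC1 KD (-0.43) and HDAC3 KD (-0.45), and Gcn5 in HDAC1 KD (-0.31), all past the threshold. Adjusted p-values are those of edgeR's quasi-likelihood test with Benjamini-Hochberg adjustment over all genes tested, and a gene was called when it was under 0.05. Labels do not say whether libraries of a group came from separate crosses, so the p-values measure the spread between these samples, which may be technical.

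On genome build dm6 eve lies on chromosome 2R at 9979319 to 9980795, plus strand, and 16.7% of its exon bases overlap the antisense RNA gene asRNA:CR43948. The gene h lies on 3L at 8675759 to 8679253, plus strand, and run on X at 20690670 to 20697321, plus strand. The gene ftz lies on 3R at 6864324 to 6866244, plus strand, with the homeotic genes Scr and Antp as its nearest neighbours. The gene odd lies on 2L at 3604224 to 3606756, minus strand, and opa on 3R at 4852813 to 4869979, plus strand, where it spans 17167 bases with 2939 of them exonic. The gene prd lies on 2L at 12082995 to 12085827, minus strand, with 6.6% of its exon bases inside asRNA:CR44592. The single-exon genes slp1 (2L, 3825675 to 3827099) and slp2 (2L, 3836840 to 3839185) are both on the plus strand and 9740 bases apart. No source used here gives the strand setting of the counting, so reads of eve and prd cannot be told apart from those of their antisense partners.

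The pair-rule genes were next to silent at stage 2 and all rose by stage 5. Over the 22 stage 2 libraries, KD and control alike, no library held more than 5 counts of any of the 9 genes. The number of stage 2 libraries with 0 counts was 21 for odd, prd and slp2, 20 for eve, ftz and slp1, 17 for h, 13 for run and 11 for opa. No gene of the 9 passed the filter on low counts at stage 2 in either set, so no KD effect could be tested there. In stage 5 against stage 2 controls all 9 rose in the main set, where 42.5% of all genes tested rose, and all 9 rose in batch1, where 48.9% did. With so few stage 2 counts, the 9 passed the filter of these fits only through their stage 5 libraries. The direction of these calls was thus set by the filter, and the 2 shares are no measure of it.

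In main controls opa averaged 239 ± 15.0 CPM (counts per M, scaled by TMM) at stage 5 against 9 counts in all at stage 2, a 1270-fold difference with a 95% counting interval of 668 to 2780. The same ratio was 3660 (1010 to 30200) for h, 2040 (366 to 80500) for eve and 823 (399 to 2050) for run, which had 2, 1 and 7 counts at stage 2. The other 5 had no count in the 3 main stage 2 controls. Against a floor of 3 counts over the group, they were at least 2240-fold (prd), 2110-fold (odd), 1690-fold (ftz), 616-fold (slp1) and 264-fold (slp2) higher at stage 5. In batch1 controls prd and slp2 again had no stage 2 count and were at least 3020-fold and 247-fold higher at stage 5. The ratio there was 3480 (1360 to 12800) for opa, 646 (341 to 1410) for h, 557 (154 to 4600) for eve and 1110 (475 to 3410) for run, which had 4, 9, 2 and 5 counts at stage 2. For ftz, odd and slp1, with 1 count each, it was 4330 (777 to 171000), 4950 (889 to 196000) and 1730 (311 to 68400). The size of these ratios rests on a few stage 2 counts, and the counting intervals of the 2 sets overlapped for opa, h, eve and run. These intervals and floors cover counting error only.

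The 9 genes differed in level among themselves. Per kilobase of exon in main stage 5 controls, opa, which encodes a zinc finger protein of the Zic family, stood highest at 76.4 ± 4.8 CPM per kb (SD, n = 3). It was followed by h at 61.6 ± 5.1, ftz at 56.2 ± 11, odd at 53.0 ± 8.2 and prd at 48.9 ± 7.0 CPM per kb, and the libraries of neighbours in this order overlap from h to prd. Then came run at 36.0 ± 5.6, eve at 28.6 ± 7.5 and slp1 at 25.5 ± 0.93 CPM per kb, and the libraries of run overlap with those of eve, and those of eve with slp1. The lowest, slp2, had 6.62 ± 1.3 CPM per kb, under every library of slp1, its neighbour on the chromosome. Opa lay above 86.5% and slp2 above 38.4% of the 9138 genes ranked.

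**Figure D1:**
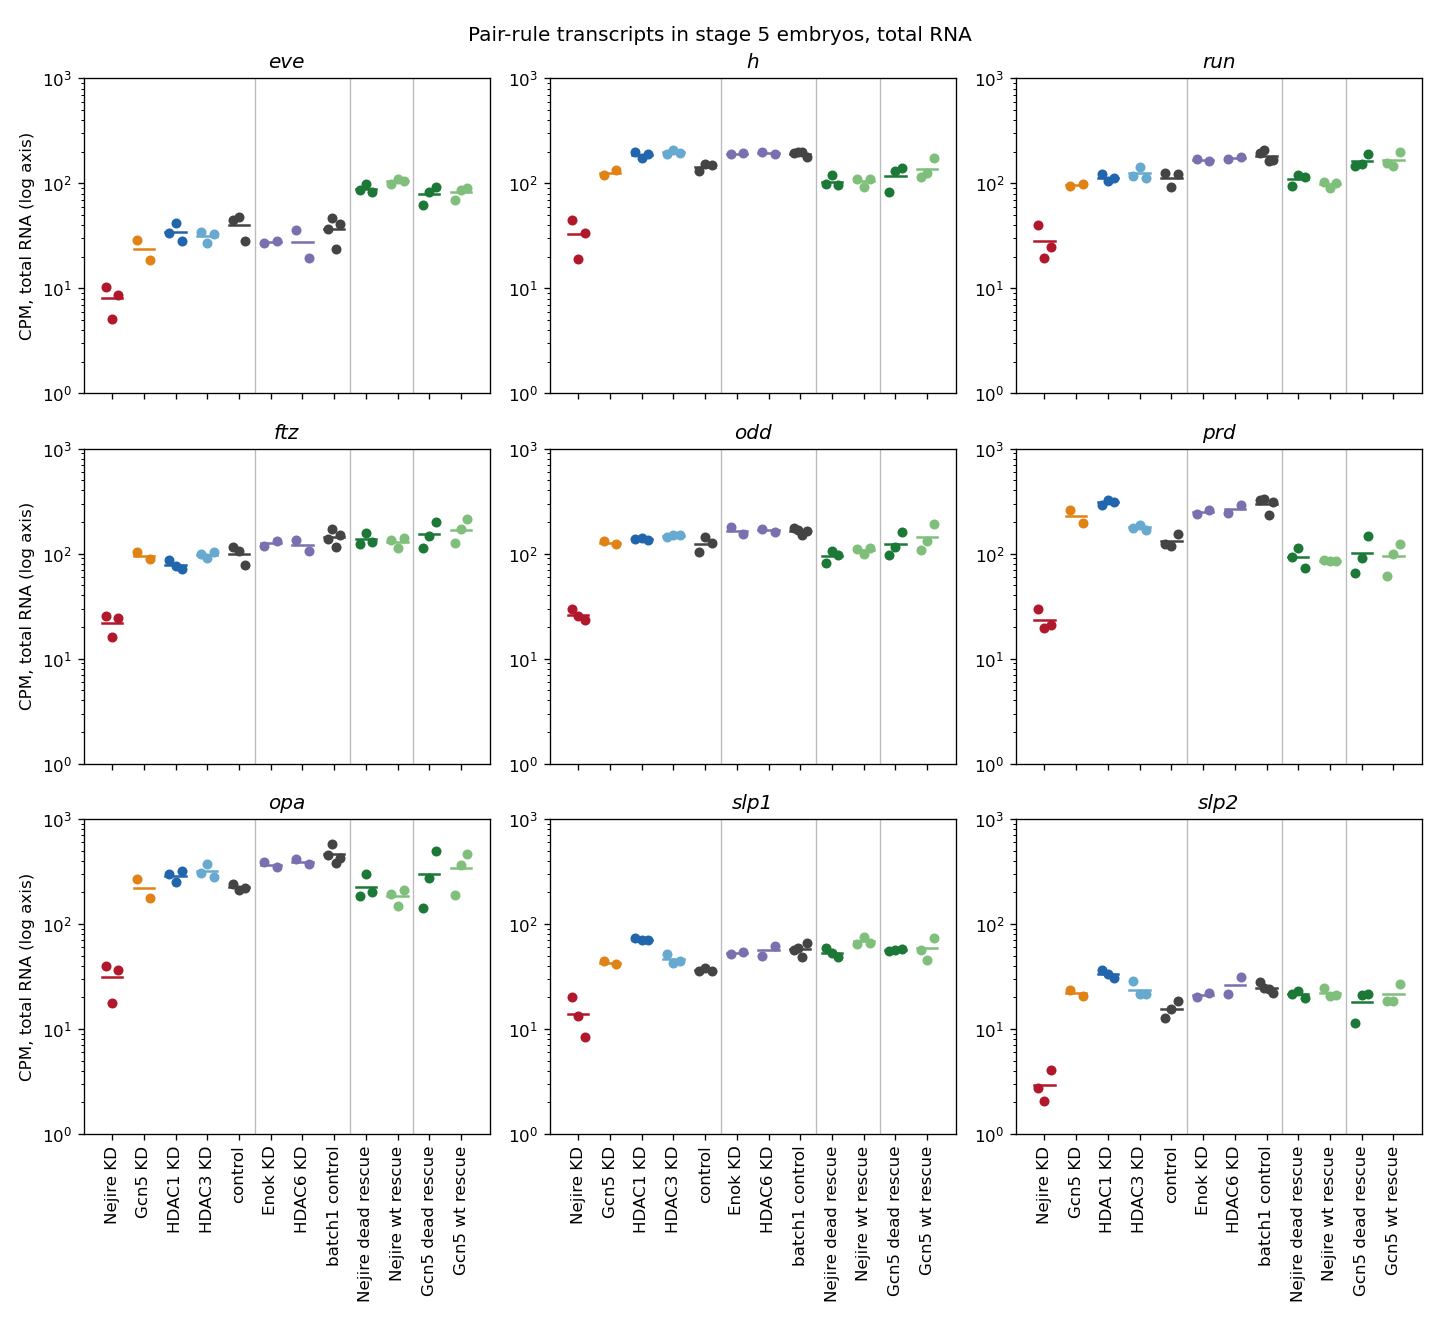
Level of each pair-rule gene in CPM (log axis, 1 scale over all stage 5 total RNA libraries) in the 12 stage 5 groups; points are libraries, bars are group means, and grey lines part the main set, batch1 and the rescues of Nejire and of Gcn5. The 3 Nejire KD libraries lie under all 31 other libraries for each of the 9 genes, and how many of all genes share this was not counted.

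All 9 pair-rule genes fell in Nejire KD embryos at stage 5, to between 13.2% (opa) and 36.8% (slp1) of control. Of all genes tested, 21.9% fell. The median log2 fold change of the 9 was -2.31, against 0.013 over all 8236 genes tested. Summed over the 9 genes, Nejire KD libraries held 245, 139 and 184 CPM, against 1003, 963 and 970 CPM in control libraries.

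Among the primary genes, eve encodes a homeodomain repressor that sets the borders of the odd-numbered parasegments. Its level was 10.4, 5.10 and 8.60 CPM in Nejire KD libraries, against 48.3, 49.6 and 29.3 CPM in control libraries. The highest KD library thus lay well under the lowest control, and the log2 fold change was -2.38 (SE 0.26, adjusted p = 8.44e-07). For h, a repressor of the Hes family that works with Groucho, the levels were 45.4, 19.3 and 33.9 CPM in Nejire KD and 140, 158 and 155 CPM in control. Run, the founding Runt-domain protein, had 40.8, 19.5 and 24.8 CPM in Nejire KD and 135, 96.6 and 127 CPM in control. Neither gene's groups overlapped, with a fold change of -2.17 (SE 0.19) for h and -2.03 (SE 0.20) for run on the log2 scale. In h and run, as in eve, the second KD library was the lowest of the 3.

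The homeodomain gene ftz, whose protein acts with the nuclear receptor Ftz-F1 in the alternate set of parasegments, had 25.5, 16.3 and 24.2 CPM in Nejire KD and 124, 110 and 81.1 CPM in control. Odd, a zinc finger repressor, had 29.8, 25.7 and 23.2 CPM in Nejire KD and 113, 149 and 131 CPM in control. Both fell by a similar step, -2.25 (SE 0.17) for ftz and -2.31 (SE 0.12) for odd on the log2 scale. Odd had the lowest adjusted p of the 9 genes (1.19e-10).

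Among the later-acting genes, prd, a Pax protein that activates segment polarity genes, had 29.7, 19.7 and 20.7 CPM in Nejire KD and 133, 123 and 160 CPM in control. Its log2 fold change was -2.53 (SE 0.16, adjusted p = 7.13e-10). Opa fell most, with 39.8, 18 and 36.2 CPM in Nejire KD and 258, 221 and 230 CPM in control. That is a log2 fold change of -2.89 (SE 0.22, adjusted p = 9.09e-09), and no control library came near the KD range.

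The forkhead repressors slp1 and slp2 are neighbours with similar stripes, yet by point estimate their transcripts gave the smallest and the third largest fall. Slp1 had 20.4, 13.4 and 8.43 CPM in Nejire KD and 38.2, 39.4 and 37.2 CPM in control, a log2 fold change of -1.40 (SE 0.21, adjusted p = 3.69e-05). Slp2 had 2.76, 2.08 and 4.04 CPM in Nejire KD and 13.6, 16 and 19.4 CPM in control, a log2 fold change of -2.44 (SE 0.24, adjusted p = 2.31e-07). The ratio of slp1 to slp2 was 7.39, 6.45 and 2.09 in Nejire KD and 2.80, 2.47 and 1.92 in control. This difference was not past the replicate spread, since the third KD library lay inside the control range (two-sided exact permutation test, p = 0.3, with 0.1 the smallest p that 3 against 3 allows).

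The falls were also seen against the other KD groups of the same fit. All 9 genes were lower in Nejire KD than in Gcn5 KD (35.8% of all genes were), than in HDAC1 KD (35.6%) and than in HDAC3 KD (29.4%). The transcript of nej itself differed by -0.47 from Gcn5 KD (adjusted p = 0.242) and by -0.72 from HDAC1 KD (adjusted p = 0.0515) on the log2 scale, neither past the threshold, and by -1.43 from HDAC3 KD (adjusted p = 0.000852). Against main controls, each of the 9 stayed called with the same sign under every alternative run with those controls (108 values, log2 fold change -3.12 to -1.15, highest adjusted p 0.00222). Transcripts that are cleared between stage 2 and stage 5 in batch1 controls made up 4.51 to 5.48% of counts in Nejire KD and 2.66 to 4.30% in control. The share was higher in every Nejire KD library than in any main control, and its part in the falls was not tested. In whole-embryo RNA, fewer cells of a type and less RNA per cell cannot be told apart.

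In nuclear RNA all 9 pair-rule genes were again lower in Nejire KD, where 9.91% of all genes tested fell. The median log2 fold change of the 9 was -3.66, against -0.29 over all 9295 genes tested, after scaling each library to its ERCC spike-in. Opa had 5.59, 13.1 and 74.6 ERCC-scaled CPM in Nejire KD nuclei, against 1811, 1759 and 1512 in control nuclei, a log2 fold change of -5.77 (SE 1.07, adjusted p = 6.44e-06). The third KD library was the highest for every one of the 9 genes, yet it too lay under all controls.

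The gene odd had 2.07, 4.6 and 25 ERCC-scaled CPM in Nejire KD nuclei and 265, 240 and 207 in control nuclei. Prd had 4.65, 11.2 and 49.8 in Nejire KD nuclei and 579, 467 and 417 in control nuclei. Both gave a log2 fold change near that of the other, -4.50 (SE 0.92) for odd and -4.49 (SE 0.96) for prd. For ftz the values were 7.46, 15.7 and 61.7 in Nejire KD nuclei and 421, 387 and 305 in control nuclei. Run had 7.29, 9.97 and 60.5 in Nejire KD nuclei and 354, 341 and 283 in control nuclei. Their log2 fold changes were -3.72 (SE 0.91) for ftz and -3.66 (SE 0.90) for run.

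The gene h had 4.26, 11.4 and 71.8 ERCC-scaled CPM in Nejire KD nuclei and 297, 313 and 252 in control nuclei, a log2 fold change of -3.31 (SE 0.88). Eve had 7.63, 12.6 and 64.6 in Nejire KD nuclei and 247, 249 and 203 in control nuclei, a log2 fold change of -3.05 (SE 0.86). The slp genes fell least, as slp1 did in total RNA. Slp1 had 5.22, 8.02 and 36.4 in Nejire KD nuclei and 137, 134 and 107 in control nuclei, with a log2 fold change of -2.94 (SE 0.83). Slp2 had 1.53, 3.86 and 19.4 in Nejire KD nuclei and 58.8, 50.4 and 45.4 in control nuclei, with a log2 fold change of -2.66 (SE 0.80, adjusted p = 0.0109). The slp1 to slp2 ratio was 3.41, 2.08 and 1.87 in Nejire KD nuclei and 2.33, 2.66 and 2.35 in control nuclei, so the groups overlapped (two-sided exact permutation test, p = 1.0).

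**Figure D2:**
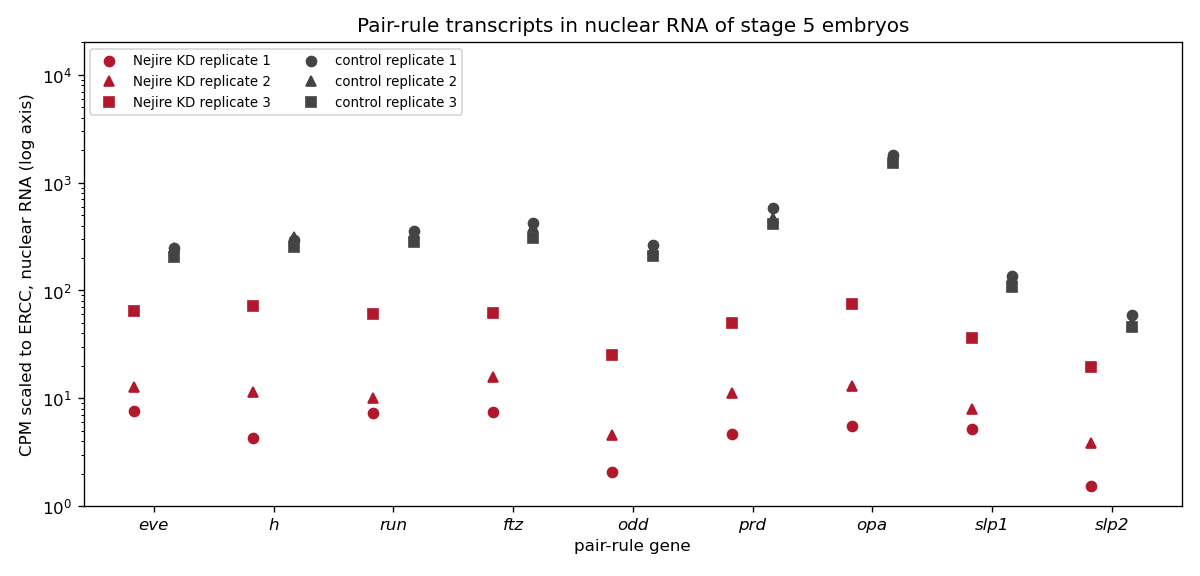
Level of each pair-rule gene in nuclear RNA of Nejire KD (left, red) and control (right, grey) stage 5 embryos, in CPM scaled to ERCC (log axis); each point is a library and its shape gives the replicate. Nejire KD replicate 3 (square) is the highest KD library for all 9 genes and lies under the controls.

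The third nuclear KD library stood apart, with 69.5 ERCC counts per M fly counts where the other Nejire KD libraries had 282 and 284 and the controls 98.5, 100 and 134. Without it, the 9 log2 fold changes ran from -7.51 (opa) to -4.25 (slp1) and all 9 were called. Leaving out any other library kept opa, odd, prd, ftz and run called, while eve, h, slp1 and slp2 lost their call at least once. The count of genes called was then 5 without control replicate 1 or 2, 8 without control replicate 3, and 6 without KD replicate 1 or 2. With TMM scaling on fly genes in place of the spike-in, all 9 were called, with opa at -5.85 and slp2 at -2.67, where 30.7% of all genes fell against 9.91% with the spike-in. The nuclear transcript of nej had a log2 fold change of -2.45 in Nejire KD with an adjusted p of 0.0637, so the check of the target in nuclei did not pass the threshold.

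Each gene's fall in nuclear RNA was larger in size than in total RNA, with a nuclear minus total difference of log2 fold changes from -0.22 (slp2) to -2.88 (opa). The difference between the assays was not tested, since the tables were scaled separately. The nuclear controls also read WT in their names, and the dates and the number of embryos per library differed. Assay, control and date can thus not be told apart in this difference. Over the 9 genes the nuclear and total log2 fold changes had a Pearson r of 0.62 and a Spearman rho of 0.42, given as a description over 9 genes. Opa led both lists. By point estimate slp2 fell least in nuclear RNA, whereas in total RNA only opa and prd fell more. Without KD replicate 3, slp1 (-4.25) and not slp2 (-4.27) fell least in nuclear RNA. In total RNA slp2 (-2.44, SE 0.24) lay close to eve (-2.38, SE 0.26), so these ranks are not resolved.

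**Figure D3:**
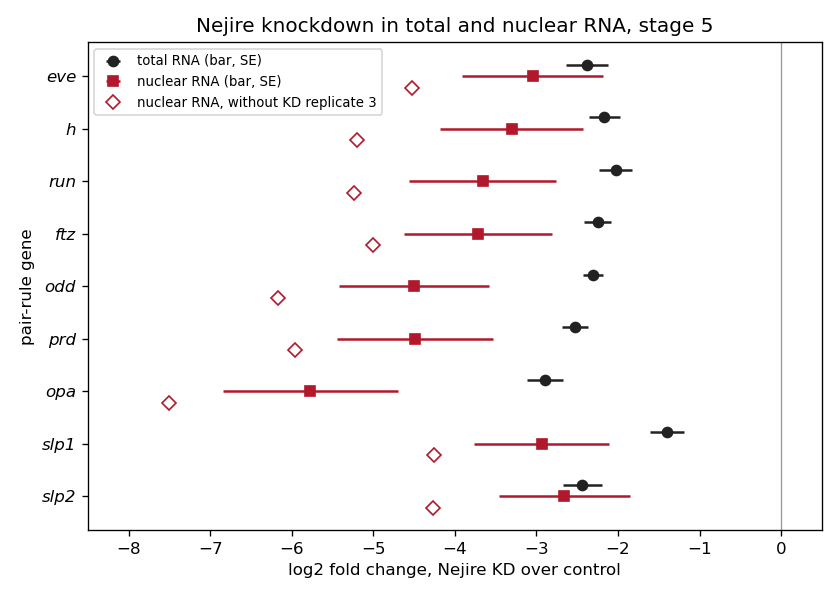
Log2 fold change of each pair-rule gene in Nejire KD over control, in total RNA (black, bar is SE), in nuclear RNA (red, bar is SE) and in nuclear RNA without KD replicate 3 (open diamonds). All points lie below 0, opa is the lowest in each, and leaving out KD replicate 3 moves all 9 nuclear values further down.

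In Gcn5 KD embryos prd and slp2 rose and eve fell against main controls, and the other 6 did not pass the test. Of all genes tested 27.4% rose and 24.3% fell, so 2 and 1 of 9 do not exceed that background. Prd had 290 and 224 CPM in Gcn5 KD, against 133, 123 and 160 CPM in control, a log2 fold change of 0.90 (SE 0.16, adjusted p = 0.00015). Slp2 had 26.1 and 23.2 CPM in Gcn5 KD, against 13.6, 16 and 19.4 CPM in control, a log2 fold change of 0.62 (SE 0.21, adjusted p = 0.0197). For both the groups did not overlap. Eve had 32.5 and 21.4 CPM in Gcn5 KD, against 48.3, 49.6 and 29.3 CPM in control, and these groups overlapped (log2 fold change -0.68, adjusted p = 0.0364). The fall of eve lost its call without control replicate 1 (adjusted p = 0.0711), control replicate 2 (0.113) or Gcn5 KD replicate 2 (0.323). The rise of slp2 lost its call without control replicate 1 (adjusted p = 0.0641) or Gcn5 KD replicate 1 (0.118). The values of h, run, ftz, odd, opa and slp1 lay between -0.13 and 0.32 on the log2 scale.

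HDAC1 KD raised 4 of the 9 genes against main controls and lowered none, with 27.5% of all genes rising. Prd had 314, 360 and 341 CPM in HDAC1 KD, against 133, 123 and 160 CPM in control, a log2 fold change of 1.30 (SE 0.14, adjusted p = 8.39e-07). Slp1 had 78.5, 78.2 and 76.6 CPM in HDAC1 KD, against 38.2, 39.4 and 37.2 CPM in control, a log2 fold change of 1.02 (SE 0.19, adjusted p = 0.000225). Slp2 had 39.6, 37.2 and 33.2 CPM in HDAC1 KD, against 13.6, 16 and 19.4 CPM in control, a log2 fold change of 1.20 (SE 0.19, adjusted p = 4.38e-05). For these 3 genes all HDAC1 KD libraries lay above all main controls. The fourth, h, had 212, 194 and 208 CPM in HDAC1 KD and 140, 158 and 155 CPM in control (log2 fold change 0.44, adjusted p = 0.0415). Leaving out any 1 of the 6 libraries ended the call of h, with adjusted p from 0.0514 to 0.103. Opa (0.42, adjusted p = 0.0813) and odd (0.22, adjusted p = 0.108) also did not overlap with control but were not called. Eve (-0.20), run (0.063) and ftz (-0.30, adjusted p = 0.116) were not called either.

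In HDAC3 KD prd and slp2 rose against main controls, both by less than in HDAC1 KD. Of all genes tested 14.4% rose. Prd had 187, 198 and 173 CPM in HDAC3 KD, against 133, 123 and 160 CPM in control, a log2 fold change of 0.43 (SE 0.14, adjusted p = 0.0259). Slp2 had 30.1, 22.4 and 21.9 CPM in HDAC3 KD, against 13.6, 16 and 19.4 CPM in control, a log2 fold change of 0.60 (SE 0.20, adjusted p = 0.0255). Both groups were clear of control, but neither call was stable. Without control replicate 1, HDAC3 KD called 0 of the 9 genes. The call of prd was also lost without control replicate 2 (adjusted p = 0.1) or HDAC3 KD replicate 1 (0.0595) or 2 (0.0794), and that of slp2 without control replicate 2 (0.0582) or HDAC3 KD replicate 1 (0.0974). Not called were h (0.46, adjusted p = 0.0527) and opa (0.49, adjusted p = 0.0613). The same held for slp1 (0.32), odd (0.24), run (0.14), ftz (-0.045) and eve (-0.40).

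Set against each other, HDAC1 KD embryos had more prd, slp1 and slp2 than HDAC3 KD embryos. The log2 difference was 0.86 for prd (SE 0.14, adjusted p = 0.000134), 0.69 for slp1 (SE 0.19, adjusted p = 0.00752) and 0.60 for slp2 (SE 0.18, adjusted p = 0.0154). Of all genes tested 21% were higher in HDAC1 KD. The call of slp2 was lost without HDAC1 KD replicate 1 (adjusted p = 0.0689) or 2 (0.0508) or HDAC3 KD replicate 2 (0.0684) or 3 (0.11). The other 6 genes lay between -0.25 and 0.20.

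Other lists moved in these 3 KD groups. Of all genes tested 24.3% fell and 27.4% rose in Gcn5 KD, 28.5% and 27.5% in HDAC1 KD, and 20.4% and 14.4% in HDAC3 KD. Of 6 maternal axis genes 5 fell in each, with a median log2 fold change of -1.96 in Gcn5 KD, -2.17 in HDAC1 KD and -0.76 in HDAC3 KD. Their summed level was 239 to 257 CPM in Gcn5 KD, 225 to 247 CPM in HDAC1 KD and 494 to 587 CPM in HDAC3 KD, against 817 to 1290 CPM in main controls and 319 to 451 CPM in batch1 controls. Of 6 early zygotic genes tested 5 fell and 1 rose in Gcn5 KD (median -1.61), 4 fell and 1 rose in HDAC1 KD (-1.83), and 2 fell and 1 rose in HDAC3 KD (-0.28). The early zygotic list summed to 2330 to 4400 CPM in batch1 controls and 4840 to 7240 CPM in main controls. Its sum was 2760 to 2800 CPM in Gcn5 KD, 1020 to 2140 CPM in HDAC1 KD and 4520 to 5120 CPM in HDAC3 KD. What part these lists have in the values of the pair-rule genes was not tested.

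The 2 control sets differed in pair-rule transcripts, although both stand for the same cross at stage 5. Their library names carry different dates. On 1 scale over all stage 5 total RNA libraries, prd averaged 299.6 ± 45.9 CPM in batch1 controls (SD, n = 4) and 132 ± 18.9 CPM in main controls (SD, n = 3), a ratio of 2.27. The ratio was 2.05 for opa, 1.62 for run, 1.58 for slp1 and for slp2, 1.34 for h and 1.32 for odd, with no overlap of the libraries. Ftz (1.43) and eve (0.914) overlapped between the sets. How many of all genes showed no overlap between the sets was not counted. The difference can thus not be called particular to pair-rule genes. Transcripts cleared by stage 5 made up 1.85 to 2.19% of counts in batch1 controls and 2.66 to 4.30% in main controls. They made up 1.94 to 2.02% in Gcn5 KD, 2.09 to 2.22% in HDAC1 KD and 1.66 to 2.19% in HDAC3 KD, so all 3 of these KD groups lay below the main controls. The share rests on 1050 genes chosen in main controls for batch1 and rescue libraries, and on 1065 genes chosen in batch1 controls for the main set. Shares of batch1 and main libraries are thus not directly comparable. Whether the share has a part in the differences was not tested.

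The calls of Gcn5, HDAC1 and HDAC3 KD therefore depended on the control set. Against batch1 controls, Nejire KD lowered all 9 genes (37.3% of all genes fell), with log2 fold changes from -3.97 (opa) to -2.07 (slp1). Batch1 controls averaged higher than main controls for every gene but eve, so the change of controls itself enlarged those falls. Calls of Nejire KD against both sets are thus no independent support. Gcn5 KD then raised none of the 9 and lowered 5, h (-0.56), run (-0.88), ftz (-0.52), odd (-0.32) and opa (-1.0), where 21.4% of all genes fell. HDAC1 KD raised slp2 alone (0.49, adjusted p = 0.0137), where 21.1% of all genes rose, and lowered run (-0.66), ftz (-0.82) and opa (-0.64), where 19.8% fell. The values of prd (0.076) and slp1 (0.36, adjusted p = 0.0951) in HDAC1 KD were no longer called. HDAC3 KD lowered run (-0.58), ftz (-0.56), prd (-0.78) and opa (-0.55), where 20.1% of all genes fell. Prd in HDAC3 KD was thus called in opposite directions against the 2 control sets. Called with the same sign against both were 9 genes in Nejire KD, 1 in HDAC1 KD (slp2) and 0 in Gcn5 KD and in HDAC3 KD. The batch1 comparisons set libraries of different sets against each other, so KD and set cannot be told apart there.

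**Figure D4:**
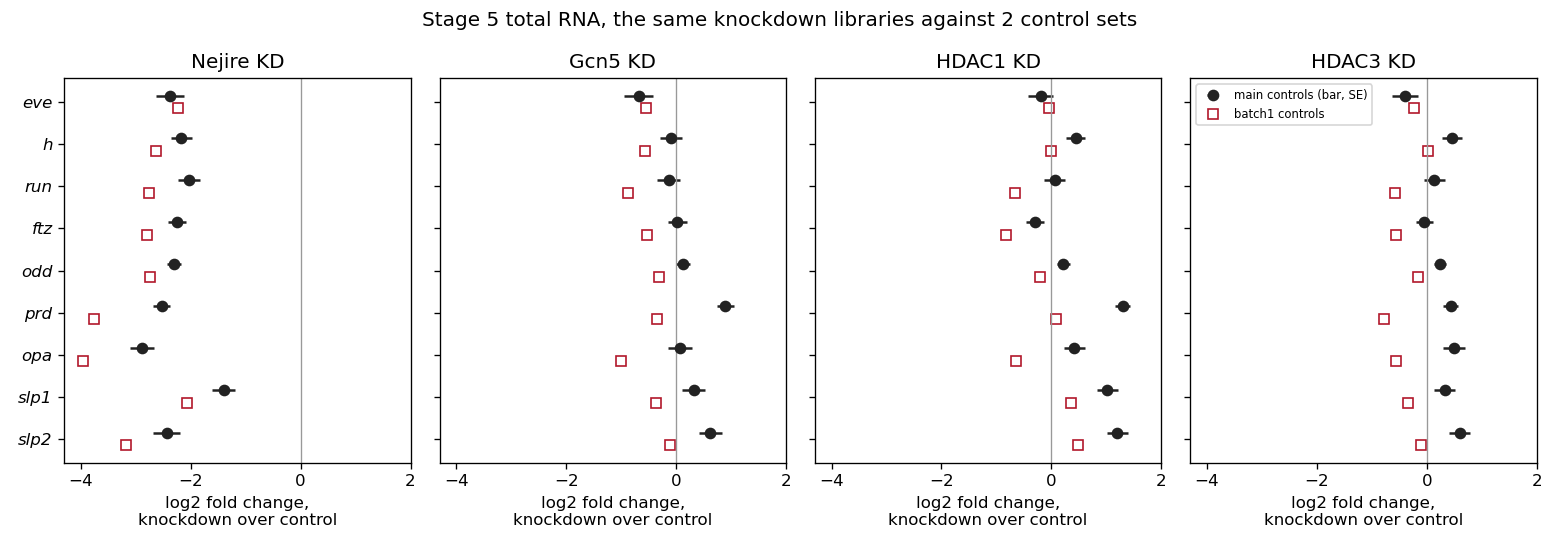
Log2 fold change of the pair-rule genes in Nejire, Gcn5, HDAC1 and HDAC3 KD at stage 5, against main controls (filled circles, bar is SE) and batch1 controls (open squares). For Nejire KD both marks lie far left of 0 for every gene. In each KD, Nejire KD included, the marks of prd and opa lie about 1 log2 unit apart.

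Enok KD and HDAC6 KD called none of the 9 genes against batch1 controls, where 3.96% and 1.42% of all genes were called in either direction. In Enok KD the log2 fold changes lay between -0.42 (eve) and -0.0028 (odd), with SE from 0.090 to 0.30. Opa, with 409 and 352 CPM in Enok KD and 483, 609, 391 and 452 CPM in control, was the 1 gene of the 9 under an unadjusted p of 0.05 (adjusted p = 0.231 by edgeR). Prd, with 252 and 267 CPM in Enok KD and 344, 348, 241 and 328 CPM in control, was called without control replicate 3 (log2 fold change -0.39, adjusted p = 0.0487). In HDAC6 KD the log2 fold changes lay between -0.42 (eve) and 0.086 (slp2), with SE from 0.089 to 0.29, and 0 genes had an unadjusted p under 0.05. DESeq2 called 0 of 9 in both. Without HDAC6 KD replicate 2, the library whose stage fields differ, 0 of 9 were called, eve lay at -0.0024 and slp2 at -0.21. With 2 KD libraries each, differences of the size of these errors were not detectable.

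The rescue groups asked whether a catalytic dead protein differs from the wild type protein in embryos with KD of the endogenous gene. Between the Nejire catalytic dead rescue and the Nejire wt rescue none of the 9 genes was called, and 0.258% of all genes were. Slp1 had 51.7, 47.0 and 42.8 CPM with the catalytic dead protein, against 56.6, 66.4 and 58.7 CPM with wild type (log2 fold change -0.36, SE 0.095, adjusted p = 0.147). It was the only one of the 9 whose groups did not overlap. Eve had 75.7, 87.9 and 73.1 CPM with the catalytic dead protein and 87.5, 97.6 and 93.7 CPM with wild type (-0.23, SE 0.085, adjusted p = 0.236). These 2 genes had an unadjusted p under 0.05 by edgeR, and DESeq2 called 0 of 9. With no filter on low counts, slp1 (-0.36) and opa (0.32) were called.

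Between the Gcn5 catalytic dead rescue and the Gcn5 wt rescue, 0.0% of all genes and 0 of the 9 were called. None had an unadjusted p under 0.05 by edgeR, and DESeq2 called 0. The replicates here spread widely. Opa had 132, 251 and 459 CPM with the catalytic dead protein and 173, 338 and 434 CPM with wild type. Summed over the 9 genes, the range was 720 to 1403 CPM with the catalytic dead protein and 825 to 1450 CPM with wild type. The difference between the Nejire and the Gcn5 rescue contrasts was not called for any of the 9 (adjusted p = 0.999999 for each, edgeR interaction term over 8582 genes).

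The rescue groups had no KD without rescue and no control of their own, so their levels are set beside main controls with no test. Their library names carry later dates than those of the main set, and the Nejire rescues name other parents than Nejire KD, so rescue, date and cross cannot be told apart in these levels. On the joint scale eve stood at 221% of the main control mean in the Nejire catalytic dead rescue, 260% in the Nejire wt rescue, 197% in the Gcn5 catalytic dead rescue and 206% in the Gcn5 wt rescue. These were the 4 highest of the 12 stage 5 groups for eve. Some summed lists were also higher in the 4 rescue groups, at 2640 to 3910 CPM for the gap genes, against 1900 to 2350 CPM in main controls. The maternal axis genes summed to 1380 to 2500 CPM in the rescues and 817 to 1290 CPM in main controls, and the 3 pioneer factors to 2240 to 3150 CPM in the rescues and 1000 to 1670 CPM in main controls. Other lists were lower in the Nejire rescues. Toll family receptor genes summed to 163 to 209 CPM (wt) and 154 to 214 CPM (catalytic dead), against 396 to 460 CPM in main controls. Late neural markers summed to 31.8 to 38.2 CPM (wt) and 27 to 63.3 CPM (catalytic dead), against 82.2 to 94.7 CPM. In the Gcn5 rescues both of these lists overlapped with main controls. Cleared transcripts made up 1.20 to 1.57% of counts in the Nejire rescues and 1.76 to 2.95% in the Gcn5 rescues, against 1.85 to 2.19% in batch1 controls by the same genes. Whether these have a part in the levels of eve was not tested. Prd stood between 65.1% and 76.8% in the same 4 groups. Slp1 stood at 146% in the Nejire catalytic dead rescue and 187% in the Nejire wt rescue, while h stood at 72.4% and 72.9%. Nejire KD alone held the lowest mean of the 12 groups for every gene, and its 3 libraries lay under the other 31 for all 9. How many of all genes share this pattern was not counted, while 21.9% of all genes tested fell in Nejire KD against main controls.

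Across the 12 stage 5 groups the 9 genes mostly varied together. Their 36 pairwise Pearson correlations of log2 group means had a median of 0.84, as a description over 12 groups that share Nejire KD as a low point. The 8 pairs with eve ran from 0.087 to 0.81, and the 28 pairs without it from 0.54 to 0.98. Set against the mean profile of the 9, eve (0.63) and prd (0.81) were the least alike and opa (0.98) the most. Of 6610 genes compared, those most like the mean profile were sprt (0.983), Ndfip (0.980), neur (0.978), sog (0.970) and ptc (0.964). The single best match was ems for eve (0.981), nub for h (0.983), neur for run (0.986), byn for ftz (0.981) and Ndfip for odd (0.976). For the others it was Ama for prd (0.989), neur for opa (0.980), pad for slp1 (0.956) and sprt for slp2 (0.955).

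Upstream of the pair-rule genes, the maternal axis transcripts and the gap genes moved differently in Nejire KD. Of 6 maternal axis genes 3 rose and none fell, where 16.1% of all genes rose and 21.9% fell, led by bcd, the anterior morphogen, at 161 ± 17.9 CPM in Nejire KD and 85.6 ± 36.7 CPM in control (SD, n = 3 each; log2 fold change 0.90, adjusted p = 0.011). Of 13 gap genes 10 fell and none rose, with a median log2 fold change of -1.39, against 0.013 over all genes. Kr, a central gap repressor, had 68.8 ± 3.91 CPM in Nejire KD and 323 ± 33.0 CPM in control (-2.23). The terminal gap gene tll (-1.64), knrl (-1.64) and the head gap gene ems (-2.31) also fell. The gap genes hb, btd and cnc were not called, with values of 0.07, -0.21 and 0.02. In Gcn5 KD and in HDAC1 KD 1 of 13 gap genes rose and 7 fell, where 24.3% and 28.5% of all genes fell. In HDAC3 KD 1 rose and 2 fell, and 2 of 13 does not exceed the 20.4% of all genes that fell. The 13 gap genes summed to 1420 to 1630 CPM in batch1 controls and 1900 to 2350 CPM in main controls. Their sum was 1110 to 1150 CPM in Gcn5 KD and 1100 to 1370 CPM in HDAC1 KD. This list was thus also lower in batch1 than in main controls.

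Of 8 cofactors of the pair-rule proteins 2 fell and 1 rose in Nejire KD, shares near the 21.9% and 16.1% of all genes. Hth, a homeodomain partner of Exd, had 43.7 ± 3.13 CPM in Nejire KD and 318 ± 43.4 CPM in control (-2.86). Bro, a partner of Runt-domain proteins, also fell (-1.76), and ftz-f1, the partner of Ftz, rose (0.43, adjusted p = 0.033). Of 5 relatives tested 4 fell, among them dpn, a Hes gene like h (-2.25), and the odd family genes drm (-2.89), bowl (-0.94) and sob (-1.31).

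Downstream, 6 of 8 segment polarity genes tested fell in Nejire KD and none rose, where 21.9% of all genes fell. The median log2 fold change of the 8 was -2.33. The Hedgehog pathway factor ci had 132 ± 26.7 CPM in Nejire KD and 580 ± 28.7 CPM in control (-2.13), and the Hedgehog receptor ptc fell by 2.64 on the log2 scale. The ligand wg (-2.51) and the Wingless antagonist nkd (-2.26) fell as well. The Toll family receptor genes Tollo (-2.15) and Toll-6 (-1.40), which pair-rule proteins pattern for axis extension, both fell. In nuclear RNA 7 of the 8 segment polarity genes, both Toll family genes and 5 of 13 gap genes fell, where 9.91% of all genes did. In Gcn5 KD and in HDAC1 KD 6 of 8 segment polarity genes rose and none fell, and in HDAC3 KD 4 rose. Of all genes tested 27.4% rose in Gcn5 KD, 27.5% in HDAC1 KD and 14.4% in HDAC3 KD. Summed over the 9 segment polarity genes, batch1 controls held 2070 to 2650 CPM and main controls 1050 to 1120 CPM, so this list too was higher in the batch1 controls.

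Of 6 early zygotic genes tested, 3 fell in Nejire KD, halo (-2.08), sc (-2.09) and slam (-0.98), and none rose. In this KD 21.9% of all genes fell and 16.1% rose. Both pole cell transcripts rose, pgc by 1.26 and gcl by 0.63 on the log2 scale, with a summed level of 308 to 399 CPM in Nejire KD and 139 to 251 CPM in control. The 4 late neural markers summed to 15.2 to 29.1 CPM in Nejire KD and 82.2 to 94.7 CPM in control, nearly all of it elav. The 4 late muscle markers summed to 12.9 to 32.5 CPM in Nejire KD and 6.09 to 11.3 CPM in control. Follicle cell markers of the mother, with 4 of 6 at 0 in both groups, summed to at most 0.176 CPM in Nejire KD and 0.244 CPM in control. In nuclear RNA they summed to 2.01 to 12.1 ERCC-scaled CPM in Nejire KD and 14.1 to 31.8 CPM in control. What part these markers have in the falls of the pair-rule genes was not tested.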

How the data were processed

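Total and nuclear RNA of fly embryos had been sequenced, and the authors deposited unnormalized counts per gene ID of FlyBase. The submitters' processing notes name bcl2fastq 2.20.0.422 and the genome build dm6. No source used here names the aligner, the counter or the strand setting. Of 17753 gene IDs, 17626 (99.3%) matched Ensembl release 115, whose coordinates are used, and 82 of 83 list genes matched.

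Low counts were removed by filterByExpr (minimum 10, total 15). The test was the quasi-likelihood F test of edgeR 4.0.16 (R 4.3.3) with TMM scaling and Benjamini-Hochberg adjustment over all genes (threshold 0.05), tested on simulated data beforehand. The 5 main groups of a stage shared a fit, as did the 3 of batch1, while stage, rescue and nuclear comparisons were fitted alone. Nuclear libraries were scaled to the summed counts of 92 ERCC transcripts. SE was obtained by dividing the log2 fold change by the root of F. Cleared transcripts fell by at least 2 (log2) from stage 2 to 5 in the control set not compared. All 62 libraries were used, grouped by title, so the HDAC6 library with conflicting stage fields stayed at stage 5, and no 2 were identical. All 9 genes were counted in every comparison, though not every uncalled gene is named with its value. Of each list at most the 4 genes with the lowest p are named, apart from 3 uncalled gap genes named after their values were seen. The genes and lists were chosen with earlier results of these data known. Alternatives were RLE and stable-gene scaling, no filter, DESeq2 1.42.0, pairwise fits, a replicate block, the other control set and leaving out single libraries.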

Additional observations from a re-analysis of the deposited data

Results flagged for a closer look

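Among the 4 stage 5 controls of batch1, h had 189 CPM in replicate 4, where the other 3 libraries lay between 205 and 208 CPM. The gap was large against the range of the group by Dixon's criterion for 4 samples (gap over range of 0.859, past the 95% critical value). Chance alone flags a small share of such groups at the 95% level, and no other pair-rule gene was flagged in that group.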

How the results depend on the processing

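The genes and settings gave 1817 values under alternatives, of which 1648 kept direction and call, 52 lost the call, 39 gained one and 78 changed direction, none of these among the called falls of Nejire KD in total RNA. All alternatives were planned. In HDAC3 KD the number of the 9 genes called was 4 with RLE scaling, with no filter, with DESeq2 and with only the 2 groups compared, 5 with scaling to stable genes, and 4 with batch1 controls, against 2. With batch1 controls 5 were called in Gcn5 KD, against 3, and with no filter 2 were called between the Nejire rescues, against 0. The calls with batch1 controls in HDAC3 KD and Gcn5 KD were all falls. None of them was called with the same sign against main controls. Leaving out single libraries gave 1 to 3 calls in Gcn5 KD, 0 to 3 in HDAC3 KD, 0 to 1 in Enok KD and 5 to 9 in nuclear RNA. Scaling to stable genes moved the median of all genes by 0.288 (Gcn5 KD), 0.326 (HDAC1 KD), 0.173 (HDAC3 KD) and -0.088 (Nejire KD), and gave 3598 rising and 1372 falling genes in Gcn5 KD (2259 and 2002 with TMM), 3689 and 1481 in HDAC1 KD (2264 and 2346), 2133 and 1209 in HDAC3 KD (1189 and 1678), 935 and 2039 in Nejire KD (1324 and 1800), 2330 and 1062 in HDAC1 KD against HDAC3 KD (1730 and 1657), and, in Nejire KD, 1612 and 4341 against Gcn5 KD (2320 and 2948), 1805 and 4340 against HDAC1 KD (2711 and 2933) and 1736 and 3496 against HDAC3 KD (2400 and 2424). In nuclear RNA TMM on fly genes moved the median by 0.287 and gave 2769 rising and 2857 falling genes (327 and 921 with ERCC). Replicate numbers paired no samples by their deviations in any comparison of stage 5, and the replicate block gave 3 calls each in HDAC1 KD and HDAC3 KD and 7 in nuclear RNA, with the other counts as without it. The causes were not tested. With scaling to stable genes, the sign changed for h (0.19) and run (0.15) in Gcn5 KD, eve (0.14) and ftz (0.035) in HDAC1 KD, ftz (0.14) in HDAC3 KD, h (0.0091) in HDAC6 KD, h (0.028) between the Nejire rescues and h (0.13), run (0.078), odd (0.13) and opa (0.074) between HDAC1 KD and HDAC3 KD. With no filter on low counts, the sign changed for ftz (-0.016) in Gcn5 KD and h (0.0082) in HDAC6 KD. Under the replicate block, the sign changed for ftz (-0.0036) in Gcn5 KD and odd (-0.056) and slp2 (-0.018) in HDAC6 KD. With only the 2 groups compared in the fit, the sign changed for ftz (-0.0053) in Gcn5 KD. With only the 3 controls named for Enok and HDAC6 KD, the sign changed for slp1 (0.024) in HDAC6 KD. With batch1 controls, the sign changed for ftz (-0.52), odd (-0.32), prd (-0.34), opa (-1.0), slp1 (-0.37) and slp2 (-0.11) in Gcn5 KD, h (-0.0069), run (-0.66), odd (-0.20) and opa (-0.64) in HDAC1 KD and run (-0.58), odd (-0.17), prd (-0.78), opa (-0.55), slp1 (-0.33) and slp2 (-0.11) in HDAC3 KD. The ranges below are those over the fits that each left out 1 library. In Gcn5 KD, the sign changed for h (-0.19 to 0.0014), ftz (-0.14 to 0.15) and opa (-0.24 to 0.33). In HDAC1 KD, the sign changed for run (-0.076 to 0.17). In HDAC3 KD, the sign changed for run (-0.0035 to 0.26) and ftz (-0.15 to 0.083). In Enok KD, the sign changed for odd (-0.12 to 0.12). In HDAC6 KD, the sign changed for h (-0.047 to 0.036), odd (-0.046 to 0.058), slp1 (-0.19 to 0.10) and slp2 (-0.21 to 0.32). Between the Nejire rescues, the sign changed for h (-0.12 to 0.044), ftz (-0.026 to 0.15), prd (-0.049 to 0.27) and slp2 (-0.10 to 0.048). Between the Gcn5 rescues, the sign changed for eve (-0.20 to 0.089), run (-0.17 to 0.11), ftz (-0.39 to 0.062), odd (-0.44 to 0.047), prd (-0.29 to 0.34), opa (-0.72 to 0.18), slp1 (-0.21 to 0.15) and slp2 (-0.39 to 0.0091). Between HDAC1 KD and HDAC3 KD, the sign changed for h (-0.064 to 0.0064), run (-0.19 to 0.034) and opa (-0.20 to 0.041).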
